A study of Drosophila melanogaster with 9 samples.

Results

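The genes examined here encode the proteins of the cytoplasmic ribosome, measured in Drosophila metastases that were passed from host to host. Members were the genes whose current symbol is RpS or RpL followed by a number and at most 1 letter a or b, or RpLP followed by a digit. Of the 81 genes in the RefSeq annotation with such a symbol, 32 had a probe set that the platform annotation assigns to that gene alone, out of 11982 genes named in this way on the array. These 32 comprised 15 of 35 genes of the small subunit and 17 of 46 genes of the large subunit. The other 49, among them RpS3, RpS6, RpL5 and RpL11, were not analysed here. Where a gene had several probe sets, the one with the highest mean represented it.

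Each cytoplasmic ribosome carries a single copy of most of these proteins, assembled on ribosomal RNA in the nucleolus, and their genes are among the most highly transcribed in growing cells. In Drosophila, loss of 1 copy of many of them gives the Minute phenotype of slow development and thin bristles, and cells with such a mutation are eliminated next to normal neighbours. Several of the genes exist as duplicates, of which usually 1 copy is used throughout the body and the other in few tissues, often the germline.

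All samples carried the same genotype. MARCM clones in the adult gut were mutant for Apc and Apc2 (a null and a loss-of-function allele) and expressed UAS-RasV12, UAS-Sna and UAS-GFP under esg-Gal4, a driver active in midgut progenitor cells. Metastases (TMets) from the abdomens of 3 flies were grown in young yw female hosts and carried on from fly to fly. RNA came from transplant rounds T1, T2 and T10, named by the number of the round, with 3 arrays for each. The study's methods keep the hosts at a higher temperature than the 25 °C of the sample labels. The tumor mass was cut out of the host by its GFP, so a sample can hold host cells, and in such bulk samples fewer cells of a type and less RNA per cell cannot be told apart.

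The 3 samples of a round are labelled technical replicates although the design describes 3 flies, so the p-values measure only the spread between these samples, which may be technical. The deposited values are log2 expression from RMA, the standard summary of Affymetrix probe sets, with array medians of 6.49 to 6.73 over the 18769 non-control probe sets. Transcripts of esg were at 9.39 to 11.23 on all 9 arrays, while Sox100B, another gene of midgut progenitors, was at 8.83 to 9.27 in T1, 8.59 and 9.73 in T2 replicates 2 and 1, 4.39 in T2 replicate 3, and 4.33 to 4.74 in T10. The summed log2 value of 6 such progenitor genes was 53.97 to 56.86 in T1, 50.6 to 61.58 in T2 and 43.4 to 50.89 in T10. The list did not move one way: Delta, the Notch ligand of midgut stem cells, was higher in T10 than in T1 (3.36, adjusted p = 0.0831 by limma on all 9 arrays), and the other 5 genes had lower means in T10. T2 replicate 3 stood apart from its round. Over all probe sets it correlated at 0.964 to 0.984 with T10, and with the remaining samples of T2 at 0.932 to 0.95. The comparisons with T2 are therefore also given without this array. As it was singled out partly for its likeness to T10, leaving it out can widen the differences between T10 and T2.

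The 32 genes fell into 27 with a mean log2 value over 12 and 5 below it, a division made after the values were seen. The brighter 27 were 11 genes of the small subunit (RpS7, RpS12, RpS15, RpS18, RpS20, RpS21, RpS26, RpS27A, RpS28b, RpS29 and RpS30) and 16 of the large subunit (RpL3, RpL15, RpL17, RpL23, RpL27, RpL28, RpL29, RpL32, RpL36A, RpL37A, RpL39, RpL40, RpL41, RpLP0, RpLP1 and RpLP2). The nearest members on either side of the division were RpL29 at a mean of 12.45 and RpL34a at 10.61. Among all probe sets, 1.99% had a mean over 12. The dimmer 5 were RpL34a, RpS5b at a mean of 7.94, RpS28a at 7.16, RpS19b at 6.47 and RpS10a at 5.67, each of which carries the letter of a duplicate gene. Levels of different genes come from different probes, so their order is not an order of transcript abundance, and the deposited table holds no detection calls that would say whether the lowest values are above background.

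**Figure D1:**
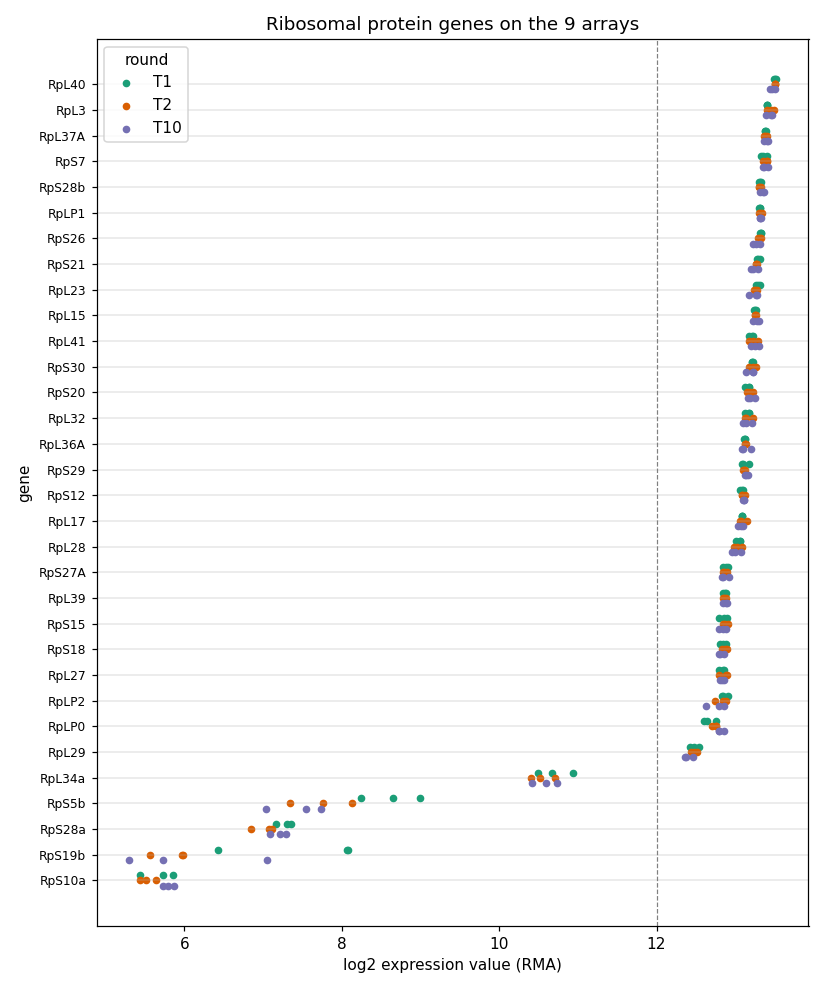
Log2 expression (x axis) of each of the 32 ribosomal protein genes (rows, ordered by mean) on the 9 arrays, 1 point per array, coloured by round T1, T2 or T10; the dashed line marks a log2 value of 12. The points of the 27 genes right of the line lie within 0.28 log2 of each other in every gene, while RpS5b and RpS19b spread widely. The T1 points lie right of all others in RpS5b, and right of those of T2 but not of every T10 point in RpS19b.

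After normalization, the 27 brighter genes held nearly the same value on every array. Their median per array was between 13.12 and 13.21, and the range of a gene over all 9 arrays was 0.04 to 0.28 log2, with a median of 0.11, against a median range of 0.72 for all probe sets and 0.34 for the 374 probe sets with a mean over 12. The SD within a round was 0.0149 to 0.0837, with a median of 0.0354, and lay under 0.05 in 24 of the 27. The corresponding median was 0.21 for all probe sets and 0.108 for those with a mean over 12. These genes also lay close to the top of the scale, since the highest value of any probe set was 13.70 to 13.75 per array and the highest of these 27 genes was 13.46 to 13.52. How far a probe set at that level still follows the amount of RNA was not tested.

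**Figure D2:**
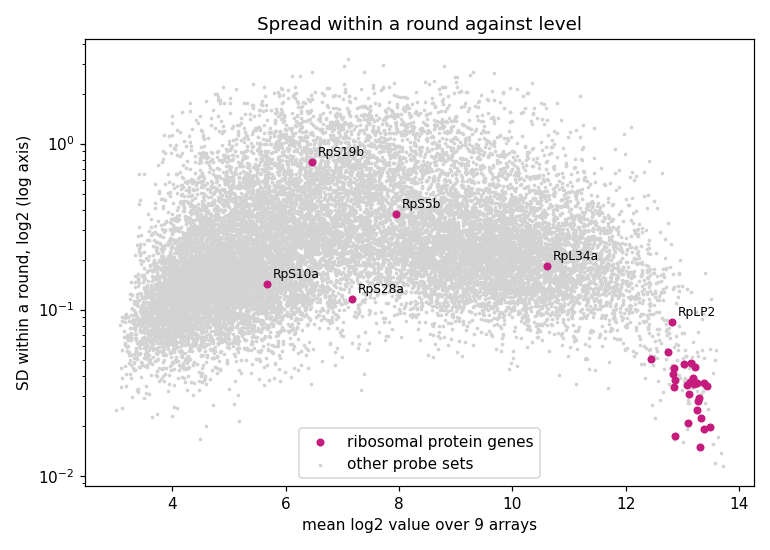
SD within a round (y axis, log2 units on a log axis) against the mean log2 value over 9 arrays (x axis), with the ribosomal protein genes in colour and the other probe sets in grey. Most ribosomal protein genes sit at the lower right, at means over 12 and SDs under 0.05, while RpS19b and RpS5b sit among the dimmer probe sets.

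Samples of 1 round lay on both sides of the middle of this narrow range. T10 replicate 1 gave the lowest of the 9 values in 14 of the 27 genes (ties counted), and 20 of the 27 lay below their own mean there. In T10 replicate 3, by contrast, 23 of 27 lay above their own mean, as did 20 of 27 in T2 replicate 3. The median deviation of the 27 genes from their own means was between -0.04 in T10 replicate 1 and 0.03 in T2 replicate 3.

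**Figure D3:**
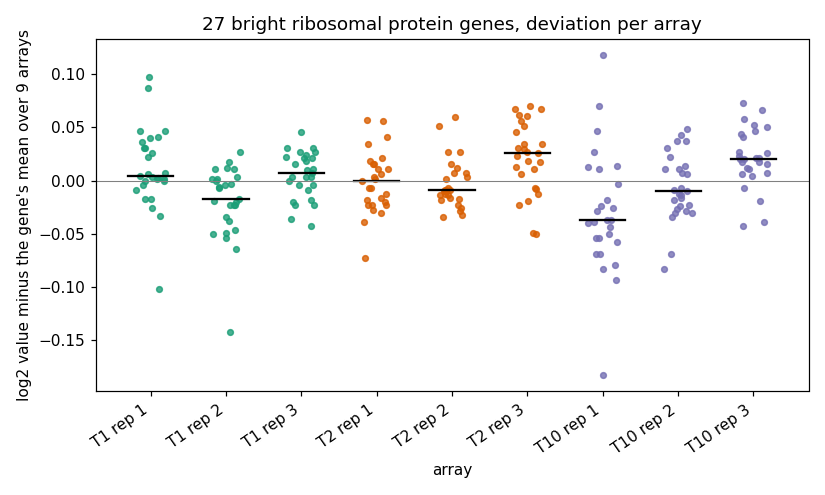
Log2 value minus the gene's own mean over 9 arrays (y axis) for the 27 brighter ribosomal protein genes, 1 point per gene, on each array (x axis), with the median as a black bar. The medians stay between -0.04 and 0.03, and the lowest and one of the highest belong to T10 arrays.

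The comparison of T10 with T1 asks how transcript levels changed over the whole series of transplants. The 27 brighter ribosomal protein genes differed between T10 and T1 by -0.10 to 0.15 log2, with a median of 0.00, 14 being above 0 and 13 below, and 25 differing by less than 0.1 in size. The 11 brighter genes of the small subunit had a median difference of -0.01 (-0.06 to 0.04), and the 16 of the large subunit one of 0.00 (-0.10 to 0.15). In limma's moderated test on all 9 arrays with Benjamini-Hochberg adjustment over 18769 probe sets, 0 of the 32 members passed an adjusted p of 0.05 in either direction, where 0.0% of all probe sets passed as higher and 0.0107% as lower in T10. At an unadjusted p of 0.05, 2 of 32 members passed (6.25%), RpS5b and RpS19b, both lower in T10, against 20.8% of all probe sets (11.5% lower, 9.34% higher). With the T2 arrays left out of the fit altogether, 0 members passed the adjusted threshold, where 2.98% of all probe sets passed as higher and 2.99% as lower. A change of over 0.25 log2 in size was seen in the same 2 members and in 41.9% of all probe sets. The median 95% interval of the brighter genes extended 0.17 log2 to either side of the difference, and the lowest and highest bounds were -0.31 (RpLP2) and 0.34 (RpLP0). These widths draw on the spread of all probe sets, which limma's moderated test pools. The standard errors of the 27 were 0.0711 to 0.0924, beside 0.0708 as the smallest of any probe set. RpLP1, for example, had a standard error of 0.0711 with an SD within a round of 0.0149. The intervals and p-values of the brighter genes therefore reflect more than their own spread.

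Compared with T2, the 27 brighter genes differed in T10 by -0.08 (RpL29) to 0.07 (RpLP0), and between T2 and T1 by -0.04 (RpLP2) to 0.08 (RpLP0), so that all 27 stayed under 0.1 log2 in size in both comparisons. Between T10 and T2, 0 of 32 members passed the adjusted threshold of limma's test and 0 an unadjusted p of 0.05, against 0.0% of all probe sets adjusted in either direction and 17.0% unadjusted (8.45% higher, 8.6% lower). Without T2 replicate 3 the adjusted count of members was still 0, where 3.15% of all probe sets passed as higher and 4.32% as lower, and the 27 brighter genes differed in T10 from T2 by -0.06 to 0.08 and in T2 from T1 by -0.07 to 0.07. Between T2 and T1, 0 members passed the adjusted threshold, where 0.0% of all probe sets passed as higher and 0.00533% as lower, both with and without T2 replicate 3. At an unadjusted p of 0.05, 3 of 32 (9.38%) passed, RpS5b, RpS19b and RpS28a, all lower in T2, against 6.16% of all probe sets (4.15% lower, 2.01% higher). They were 2 without T2 replicate 3, RpS5b and RpS19b (6.25%), against 5.34% of all probe sets. Over all 32 members the median difference was -0.01 for T10 against T1, -0.01 for T10 against T2 and 0.00 for T2 against T1, beside -0.01, 0.04 and -0.03 over all probe sets.

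Of the proteins of the large subunit, RpLP0, RpLP1 and RpLP2 form the stalk, a flexible protrusion that recruits the translation factors, with RpLP0 at its base and RpLP1 and RpLP2 bound to it. RpLP0 was at 12.64, 12.60 and 12.76 in T1, 12.76, 12.71 and 12.76 in T2, and 12.86, 12.79 and 12.80 in T10. The T10 values were thus all above those of both other rounds, while those of T2 and T1 overlapped. The difference was 0.15 between T10 and T1 (standard error 0.0807, 95% interval -0.04 to 0.34, 1.11-fold, adjusted p = 0.338 by limma). RpLP0 was 1 of 2 members whose T10 and T1 arrays did not overlap (6.25%), and 28.1% of all probe sets showed no overlap in that comparison (12.9% higher, 15.1% lower in T10).

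For its partners in the stalk, the values of all rounds overlapped. RpLP1 was at 13.30, 13.32 and 13.32 in T1, 13.32, 13.30 and 13.34 in T2, and 13.33, 13.31 and 13.31 in T10, a range of 0.04 over all arrays. RpLP2 was at 12.91, 12.83 and 12.84 in T1, 12.74, 12.84 and 12.88 in T2, and 12.63, 12.79 and 12.86 in T10, with T10 replicate 1 the lowest. Its difference between T10 and T1 was -0.10 (standard error 0.0924, adjusted p = 0.594 by limma), and -0.01 without replicate 1 of every round. RpLP0-like, a related protein of ribosome assembly outside the member list, had a difference of 0.13 (adjusted p = 0.53 by limma).

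RpS27A and RpL40 are made as fusions of ubiquitin with a ribosomal protein, which are split after translation. RpL40, the member with the highest mean value, was at 13.52, 13.49 and 13.51 in T1, 13.51, 13.51 and 13.50 in T2, and 13.44, 13.47 and 13.50 in T10. RpS27A was at 12.91, 12.85 and 12.88 in T1, 12.84, 12.86 and 12.90 in T2, and 12.83, 12.84 and 12.92 in T10. The rounds overlapped in both genes, with differences between T10 and T1 of -0.04 (adjusted p = 0.824 by limma) and -0.02 (adjusted p = 0.927).

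The remaining bright genes at the ends of the T10 against T1 order differed by similarly small amounts. RpL29 was at 12.54, 12.43 and 12.48 in T1, 12.44, 12.48 and 12.52 in T2, and 12.36, 12.37 and 12.46 in T10, a difference of -0.09 between T10 and T1 (adjusted p = 0.589 by limma). RpL41, a very short peptide, RpS20 and RpL3, a protein near the peptidyl transferase centre, were at the other end after RpLP0, with differences of 0.04, 0.04 and 0.03. RpL32, also known as rp49 and widely used in flies as a reference transcript, is given for that use and not by its rank: it was at 13.18, 13.12 and 13.18 in T1, 13.13, 13.14 and 13.22 in T2, and 13.10, 13.14 and 13.21 in T10. Its difference was -0.01 between T10 and T1, with a 95% interval of -0.19 to 0.17.

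RpS5b and RpS19b had the lowest T10 against T1 differences of all members. They are duplicates of RpS5a and RpS19a, and in Drosophila both are known for expression in the female germline, where the a copies are used in the body at large. RpS5b was at 8.65, 9.0 and 8.25 in T1, 7.76, 8.13 and 7.34 in T2, and 7.74, 7.55 and 7.04 in T10. Every T1 value was above every value of the other rounds, and T10 and T2 overlapped. The mean was 7.44 ± 0.362 in T10 and 8.63 ± 0.375 in T1 (SD, n = 3 each), a difference of -1.19 (standard error 0.28, 95% interval -1.84 to -0.54), or 2.28-fold lower in T10. This did not pass the threshold on all 9 arrays (adjusted p = 0.0927 by limma), but did without T2 replicate 3 (adjusted p = 0.0366), where 3.96% of all probe sets were called lower and 3.66% higher, and with array weights (adjusted p = 0.0236), where 5.9% were called lower and 4.74% higher. Between T2 and T1 the difference was -0.89 (1.85-fold lower in T2, adjusted p = 0.76 by limma), and between T10 and T2 it was -0.30 (adjusted p = 0.589). Leaving out T2 replicate 3, these became -0.69 (adjusted p = 0.92) and -0.50 (adjusted p = 0.353), and the T10 values then lay below those of T2.

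RpS19b was at 8.07, 8.08 and 6.43 in T1, 5.97, 5.99 and 5.57 in T2, and 7.05, 5.30 and 5.73 in T10. The T2 values were all below those of T1, whereas T10 replicate 1 lay above T1 replicate 3. The mean was 6.03 ± 0.912 in T10 and 7.53 ± 0.95 in T1 (SD, n = 3 each), a difference of -1.50 (standard error 0.558, 95% interval -2.79 to -0.21, 2.83-fold lower in T10, adjusted p = 0.185 by limma), and it passed the threshold with array weights (adjusted p = 0.0389) and under no other alternative run. Leaving out arrays moved the difference between -2.05 and -0.86. Between T2 and T1 it was -1.68, or 3.21-fold lower in T2 (adjusted p = 0.76 by limma), and T10 and T2 differed by 0.18 (adjusted p = 0.887). The same differences without T2 replicate 3 were -1.55 (adjusted p = 0.924) and 0.05 (adjusted p = 0.976).

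Most germline markers of the list also had a lower mean in T10 than in T1, some of them by little and at low values. Of 10 such genes, all with a probe set, 9 were lower in T10 than in T1 on the mean, 4 of them with no overlap (40.0%, against 15.1% of all probe sets lower), with a median difference of -0.51. Their summed log2 values were 54.62 to 58.57 in T1, 52.65 to 54.65 in T2 and 47.42 to 51.38 in T10. The defining markers vas, bam and orb were at 3.38 to 4.48 on every array and osk at 4.22 to 6.03, near the bottom of the scale. Among the 10, vas was the gene with a higher mean in T10 (0.15), and bam, orb and osk differed by -0.16, -0.11 and -0.08. The 2 genes with the smallest p were aub, which acts in the silencing of transposons (-2.07, adjusted p = 0.0928 by limma), and grk, the signal of the oocyte to its follicle cells (-0.93, adjusted p = 0.102). The transposon silencing gene piwi (-0.47, adjusted p = 0.747) was at 6.11 to 8.93 on all arrays. AGO3, another such gene (-1.30, adjusted p = 0.374), was at 6.33 to 7.69 in T1. In T10 it was at 4.51, 4.71 and 7.37, the first 2 of these near the bottom of the scale. The T10 and T1 values overlapped in both genes. On all 9 arrays 0 of the 10 passed the adjusted threshold of limma's test and 4 (40.0%) an unadjusted p of 0.05, against 20.8% of all probe sets. The gene grk passed without T2 replicate 3 (adjusted p = 0.0289). The part of such transcripts in the RpS5b and RpS19b values was not tested.

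The other duplicate genes showed smaller differences. RpS28a was at 7.35, 7.30 and 7.16 in T1, 7.11, 7.08 and 6.85 in T2, and 7.29, 7.22 and 7.09 in T10. Its T2 values were all below those of T1, by 0.26 on average (T2 minus T1 -0.26, standard error 0.109, adjusted p = 0.76 by limma), and those of T10 overlapped both. This difference was -0.18 without T2 replicate 3 (adjusted p = 0.924), still with no overlap. RpS28a, RpS5b and RpS19b were the 3 members (9.38%) whose T2 and T1 arrays did not overlap, all lower in T2, against 9.43% of all probe sets (6.86% lower, 2.57% higher). Without T2 replicate 3, RpL17, RpL23 and RpS21 joined them, giving 6 lower (18.8%, against 11.9% of all probe sets), and RpL27 was higher with no overlap (3.12%, against 7.1%). RpS28b, the partner of RpS28a and the only duplicate among the 32 members measured alongside its copy, had means of 13.32 ± 0.0153 in T1, 13.31 ± 0.0173 in T2 and 13.34 ± 0.0306 in T10 (SD, n = 3 each). It differed by 0.03 between T10 and T1.

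RpS10a was at 5.86, 5.73 and 5.44 in T1, 5.64, 5.52 and 5.44 in T2, and 5.79, 5.73 and 5.87 in T10. All T10 values were above those of T2, by 0.26 on average (standard error 0.124, adjusted p = 0.321 by limma), and the T10 and T1 values overlapped. RpS10a and RpLP0 were the 2 members with no overlap between T10 and T2 (6.25%), both higher in T10, where 11.9% of all probe sets were higher and 9.41% lower with no overlap. Without T2 replicate 3 the RpS10a difference was 0.22 (adjusted p = 0.424), and 3 members were higher with no overlap (RpLP0, RpS10a and RpS12, 9.38%, against 22.1% of all probe sets) and 3 lower (RpL27, RpL40 and RpS5b, 9.38%, against 19.6%). RpL34a was at 10.94, 10.67 and 10.49 in T1, 10.41, 10.52 and 10.71 in T2, and 10.42, 10.59 and 10.74 in T10, and its rounds overlapped (T10 minus T1 -0.12, adjusted p = 0.712 by limma). All these levels may include signal from the copy of the gene, since the annotation does not say how far each probe set tells duplicates apart. Of the 38 probe sets of the 32 genes, 14 have the suffix by which Affymetrix marks probes shared between transcripts, and all 14 represent brighter genes. The probe sets of RpS5b, RpS19b, RpS28a, RpS10a and RpL34a do not carry it.

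**Figure D4:**
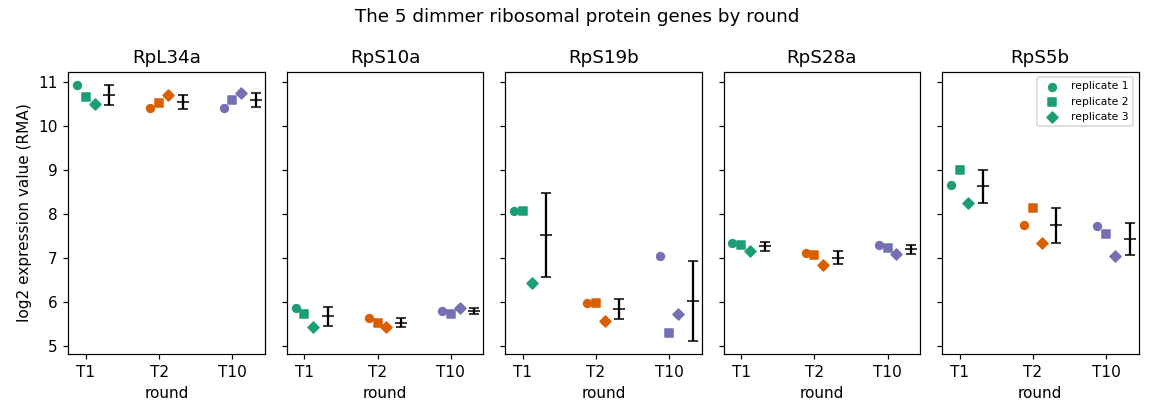
Log2 expression (y axis) of RpL34a, RpS10a, RpS19b, RpS28a and RpS5b by round (x axis), 1 symbol per array with its shape for the replicate number, and the mean with its SD (n = 3) in black beside them. In RpS5b all T1 points lie above those of T2 and T10, and in RpS19b above those of T2, while the other genes keep to a narrow band.

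RpL3, RpS7, RpS29 and RpS30 had 6 further probe sets in all, and these did not always follow the brightest one. A dim probe set of RpS29 was at 6.23, 6.27 and 6.86 in T1, 6.86, 6.42 and 6.47 in T2, and 7.16, 7.42 and 7.30 in T10, so that all T10 values were above those of the other rounds. The difference was 0.84 between T10 and T1 (standard error 0.198, adjusted p = 0.0927 by limma), whereas the bright pair of RpS29 probe sets differed by 0.02 and 0.03. A further probe set of RpS7 was at 10.54, 9.84 and 10.64 in T1, 10.66, 10.37 and 10.12 in T2, and 9.07, 9.84 and 10.34 in T10, with a difference of -0.59 (adjusted p = 0.38), beside 0.02 for the brightest. Those of RpL3 and RpS30 differed by -0.10 to 0.01.

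Of 13 genes for ribosomal proteins and relatives whose symbols fall outside the pattern, 10 were measured, with a median T10 against T1 difference of 0.03. RpL10Ab, RpL37-1 and Rack1, a component of the small subunit, were at 13.07 to 13.45 on all arrays and differed by -0.08, -0.03 and 0.09. RpL22-like, a relative of RpL22 known from the germline, was at 4.48, 4.43 and 4.34 in T1, 4.58, 4.48 and 4.98 in T2, and 5.80, 4.70 and 5.23 in T10. Its T10 values were all above those of T1, with a difference of 0.83 (standard error 0.264, adjusted p = 0.139 by limma).

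Most of the genes for factors that build the ribosome had a higher mean in T10 than in T1, although 0 passed the test. Of 38 measured ribosome biogenesis genes (41 listed), 34 were above 0 and 4 below between T10 and T1. Over all 18769 probe sets, 9020 were above 0 and 9701 below. The median of the 38 was 0.19 (-0.18 to 0.55), beside -0.01 over the 32 members and -0.01 over all probe sets. All these genes were measured on the same 9 arrays, so their directions are not independent of each other. The T10 arrays were all above the T1 arrays in 10 of the 38 (26.3%) and all below in 0, against 12.9% and 15.1% of all probe sets. By limma's test on all 9 arrays, 0 of the 38 passed the adjusted threshold and 5 (13.2%) had an unadjusted p under 0.05, against 20.8% of all probe sets. The smallest p-values were those of rswl (0.55, adjusted p = 0.116) and vito, a nucleolar protein (0.41, adjusted p = 0.131). Compared with T2, 36 of the 38 were above 0 in T10, with a median of 0.24. Over all 18769 probe sets, 10561 were above 0 and 8147 below there, with a median of 0.04. Between T2 and T1, 18 of the 38 were above 0 and 20 below, beside 7979 and 10748 of all probe sets. Without T2 replicate 3 all 38 were above 0 in T10 against T2 (median 0.30, beside 0.03 over all probe sets). In T2 against T1, 11 were then above 0 and 27 below. The array left out was the T2 array most like T10, so a wider T10 against T2 difference can follow from that choice. The summed log2 values of 3 tracheal genes (of 4 listed) were 31.23 to 34.0 in T10 and 21.91 to 25.75 in T1. Of these, verm and serp were higher in T10, by 5.38 and 4.98, and btl lower, by -1.51, each with no overlap. The sums of muscle, fat body and hemocyte markers overlapped between T10 and T1. Among their genes, Act88F (0.28), sls (1.42) and NimC1 (0.65) were higher in T10 with no overlap, and Lsp2 (-0.16) was lower. In T2 the fat body sum was 32.83 to 45.98, beside 29.91 to 34.1 in T1 and 29.47 to 31.58 in T10. T2 replicate 2 held the highest values of the fat body genes apolpp (9.93) and Yp2 (10.55). The part of such tissues in the differences of these groups was not tested.

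RNA polymerase I, which transcribes the large ribosomal RNAs, gave a median of 0.15 over 9 measured genes of 10 listed. Of these 9, 8 were above 0, where 9020 of all 18769 probe sets were. TAF1B, an initiation factor of that polymerase, differed by 0.35 (adjusted p = 0.181 by limma) and Polr1A, its largest subunit, by 0.28 (adjusted p = 0.336). Over 27 of 31 translation initiation factors the median was 0.08, with 21 above 0 and 7 with no overlap (25.9%, all higher in T10, against 12.9% of all probe sets higher). Among these were eIF4E1, which binds the mRNA cap (0.27, adjusted p = 0.181), and eIF3h (0.24, adjusted p = 0.178). In these groups 0 genes passed the threshold on all 9 arrays, and 1 (11.1%) and 2 (7.41%) had an unadjusted p under 0.05, against 20.8% of all probe sets.

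Of 9 elongation and release factors, 6 were measured, with a median of 0.06. The exception in size was eEF1alpha2, a duplicate of the factor that brings aminoacyl-tRNA to the ribosome, at 8.50, 9.45 and 7.48 in T1, 5.52, 7.94 and 6.27 in T2, and 6.44, 4.70 and 6.0 in T10. All its T10 values were below those of T1 (-2.76, standard error 0.758, adjusted p = 0.109 by limma). The other factor named, eEF1delta, differed by 0.17 (adjusted p = 0.407).

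Regulators of ribosome production were mixed. Of 11 measured genes of Tor and Myc growth control (16 listed), 3 were above 0 and 8 below, with a median of -0.18. Neither Tor nor Myc was among the 11. The list mixes genes that promote growth with genes that restrain it, so these counts give no direction for growth control. Pdk1, the kinase that activates Akt and S6k, was at 10.98, 10.65 and 10.65 in T1, 10.62, 10.99 and 10.08 in T2, and 9.12, 8.98 and 9.84 in T10, with every T10 value below those of the other rounds (-1.45 between T10 and T1, standard error 0.289). Its adjusted p by limma was 0.0866 on all 9 arrays and 0.0182 without T2 replicate 3. The second named gene, rictor, a subunit of Tor complex 2, differed by -0.42 (adjusted p = 0.159). Of the 6 measured genes of the response to ribosomal protein loss (7 listed), 2 were above 0 and 4 below, with PPP1R15, a phosphatase subunit acting on eIF2, at -0.54 (adjusted p = 0.17) and Gcn2, an eIF2 kinase, at 0.33 (adjusted p = 0.259). In the lists of elongation factors, growth control and response to ribosomal protein loss, 0 genes passed on all 9 arrays, and 1 (16.7%), 4 (36.4%) and 1 (16.7%) had an unadjusted p under 0.05, against 20.8% of all probe sets.

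**Figure D5:**
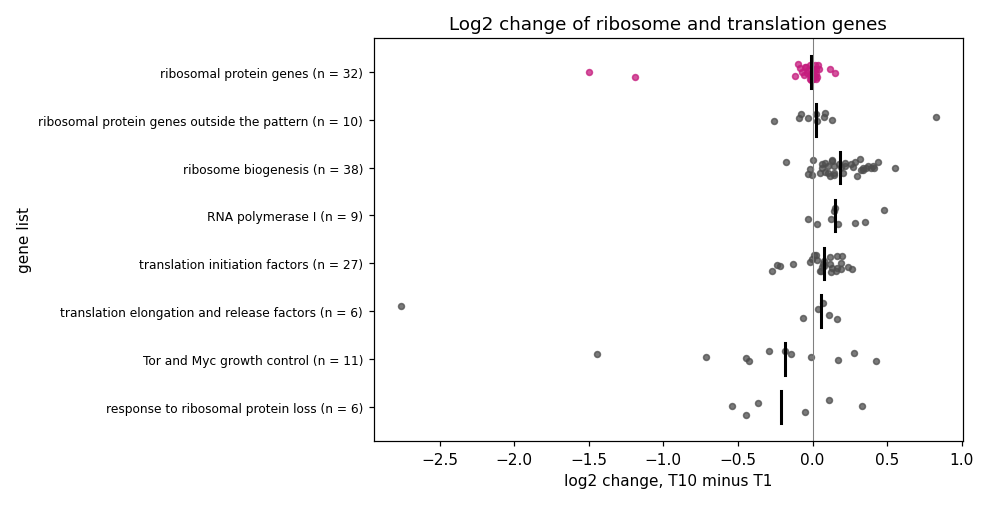
Log2 difference between T10 and T1 (x axis) of each gene in the ribosomal protein genes and in 7 related lists (rows, with the number of measured genes), with the median as a black bar. The ribosomal protein genes gather at 0, with RpS5b at -1.19 and RpS19b at -1.50 apart from them, and the ribosome biogenesis genes lie mostly right of 0, with a median of 0.19.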

How the data were processed

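Expression was measured on 9 single-color Affymetrix arrays, 3 each of rounds T1, T2 and T10. The cDNA from 25 ng of total RNA was amplified over 17 cycles. The log2 values deposited by the authors were normalized by RMA (background correction and summarization with the R packages affy and affyPLM). Their versions and a genome build are not stated in the sources used here. The table holds 18952 probe sets, of which 183 are controls. The other 18769 were compared without further scaling or filter by limma 3.58.1 under R 4.3.3, using lmFit and eBayes without a trend on all 9 arrays and a Benjamini-Hochberg adjusted p under 0.05. The platform annotation gave 13647 probe sets 1 symbol and 402 several, and only those with 1 were used for names. Symbols were updated through RefSeq, and 0 value columns were without a sample. The fit was tested on simulated data.

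Named members were the 6 highest and 6 lowest between T10 and T1, the 3 each way in the other comparisons, duplicates measured together, the stalk genes and the ubiquitin fusions, and from each other list the 2 genes with the smallest p, as 0 passed the threshold. Genes named beyond this rule (RpL32, Sox100B, esg, further marker genes, bright relatives, bright translation factors, members named for no overlap without T2 replicate 3) were chosen after their values were seen. The members and lists were chosen with earlier results of these data known. Alternatives were the arrays in the fit, replicate block, array weights, trend, scaling, a filter on dim probe sets, the mean of probe sets, and leaving out arrays. The number of arrays limits the precision.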

Additional observations from a re-analysis of the deposited data

How the results depend on the processing

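The number of members past the threshold between T10 and T1 was 0 on all 9 arrays, 2 with array weights (RpS5b and RpS19b, both lower in T10) and 0 to 1 when an array or a replicate number was left out. The 1 was RpS5b, without T2 replicate 3 (adjusted p = 0.0366 by limma) or without replicate 3 of every round (0.0361). In the comparisons of T10 with T2 and of T2 with T1 the number was 0 under every alternative run. The median difference of the members between T10 and T1 was -0.01 and ranged from -0.03 to 0.015 when arrays were left out. The median for T10 against T2 ranged from -0.0317 to 0.0033. Centring each array on its median gave 0.0817 for T10 against T2 and -0.102 for T2 against T1. Over all probe sets the same centring gave 0.13 and -0.137, so these medians depended on how the arrays were scaled. Small differences between T10 and T1 changed sign: RpL3 was at -0.0011 and RpS7 at -0.29 with the mean of a gene's probe sets, RpLP1 at -0.0093, RpS27A at 0.0033 and RpS7 at -0.0017 after quantile normalization, and RpLP1 at -0.01 after median centring. Leaving out arrays gave -0.30 to 0.085 for RpL34a, -0.01 to 0.01 for RpLP1, -0.035 to 0.215 for RpS10a, -0.045 to 0.015 for RpS27A and -0.005 to 0.0367 for RpS7. The mean over probe sets took in a further probe set at -0.59 for RpS7, and further probe sets at 0.01 and -0.04 for RpL3. The cause of the other changes of sign was not tested. Over all alternatives the adjusted p between T10 and T1 was 0.0236 to 0.644 for RpS5b, 0.0389 to 0.779 for RpS19b and 0.164 to 0.808 for RpLP0, with unchanged direction in all 3.

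With the replicate number as a block, the number of members past the threshold was 0 in all 3 comparisons, and the adjusted p was 0.114 for RpS5b and 0.152 for RpS19b. Deviations of samples with the same number correlated at -0.28 to 0.19 between rounds, and those with different numbers at -0.23 to 0.27. The numbers were not taken to pair the samples. As the deviations within a round sum to 0, these correlations depend on each other. They cannot tell whether a number marks the same line of tumors across rounds. In fits of the other lists added after seeing the data, rswl (adjusted p = 0.0406), eEF1alpha2 (0.0393), rictor (0.042), PPP1R15 (0.0417) and Pdk1 (0.0256) of the ribosome and growth lists, and aub (0.0235), bgcn (0.0275), grk (0.0402), Delta (0.0215), Sox100B (0.0225), peb (0.0497), verm (0.0223) and serp (0.0229) of the marker lists named in the text, passed between T10 and T1 with array weights, a fit that called 4.74% of all probe sets higher and 5.9% lower. Without T2 replicate 3, Pdk1, grk, Delta, Sox100B, peb, verm and serp passed.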
